A study of Rattus norvegicus with 6 samples.

Results

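Complex I of the respiratory chain is assembled from nuclear and mitochondrial gene products, and its nuclear genes were examined here in the rat heart primordium before and after heartbeat initiation. The genes were taken as all array genes whose name begins with Nduf, which gave 43 of the 26269 gene names on the array, with 56 of its 30367 probes. Of the 43 genes, 39 encode subunits and 4 encode assembly factors (Ndufaf1 to Ndufaf4), and each gene was represented by the brightest of its probes. The tissue was the heart primordium of Wistar rat embryos (written Wister in the labels) on embryonic day 10, with no genetic change and no treatment in either group. The groups were told apart by morphology, as the centre of the primordium is still flat before it beats and bulges once it does. The study also set a range of somite numbers for each group, lower for the pre-heartbeat group, so stage and heartbeat cannot be told apart here. Each group had 3 biological replicates with 1 array per replicate. The sources used here do not say how many primordia made up a sample or whether replicates came from separate litters, so p-values measure the spread between these samples.

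Complex I (NADH:ubiquinone oxidoreductase) takes electrons from NADH, passes them over a chain of iron-sulfur clusters to ubiquinone and pumps protons across the inner mitochondrial membrane. Its core subunits carry out these reactions, the accessory subunits surround and stabilise them, and the assembly factors join the modules of the enzyme without remaining in it. The adult heart depends on this enzyme for most of its ATP, whereas the early embryonic heart draws heavily on glycolysis.

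The arrays measured RNA on 1 colour, and a normalized signal below is the log2 processed signal less the 75th percentile of the array, so that 0 is the signal at that percentile. A signal is comparable across arrays for 1 probe and not between probes. Of 58717 spots other than controls, 39375 to 41327 were well above background on each array, and 0 were saturated. The 6 arrays lay on 2 slides. Slide 1 carried replicate 1 of the pre-heartbeat group with replicates 1 and 2 of the post-heartbeat group, and slide 2 carried the remaining arrays. A principal component analysis placed the slides apart on its leading component (60.3% of the variance) and the groups apart on the next (16.6%). For this reason differences are given without a block and, in parentheses or where stated, with the slide as a block, both from limma, a linear model across all tested probes with moderated errors. Errors, intervals and p-values are those of the fit without a block unless the block is named with them.

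All 43 genes were well above background on all 6 arrays, and all were among the 19299 probes tested (63.6% of the array). No complex I gene passed an adjusted p under 0.05 in limma, with 0 higher and 0 lower in the post-heartbeat group, where 0.119% of all tested probes were called higher and 0.0207% lower. At an unadjusted limma p under 0.05 the count was also 0 of 43, beside 7.01% of all tested probes. With the slide as a block, 0 genes passed the adjusted threshold, beside 1.62% of probes (1.16% called higher and 0.461% lower), and 1 gene, Ndufaf2, had an unadjusted p under 0.05, beside 9.66% of probes. The selection used in the study, at least 1.5 fold and a Tukey HSD p under 0.05 without adjustment, held 0 of the 43 genes and 3.04% of all tested probes (1.89% higher and 1.15% lower). Without its fold limit, that test had 1 complex I gene at an unadjusted p under 0.05, Ndufb4 (adjusted p = 0.526), beside 6.83% of all tested probes.

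The differences were small as well as below the threshold. The log2 difference, post-heartbeat minus pre-heartbeat, had a median of -0.011 over the 43 genes and of -0.033 over all tested probes. By value 21 of 43 genes were higher in the post-heartbeat group, beside 44.7% of all tested probes. The 39 subunits lay between -0.18 and 0.13, which is 0.881 to 1.09 times the pre-heartbeat signal. The standard error of a gene's difference had a median of 0.147, so these values were of the order of 1 standard error. The 95% confidence interval lay wholly within 1.5 fold in either direction for 41 of 43 genes, beside 43.1% of all tested probes. The exceptions were Ndufaf2 and Ndufa11, a membrane-arm subunit whose interval reached -0.59. With the slide as a block the count was 42 of 43, beside 67.8% of probes, and the median difference was 0.037, beside -0.017 over all tested probes. In that fit 27 of 43 genes were higher by value, beside 45.8% of all tested probes.

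**Figure D1:**
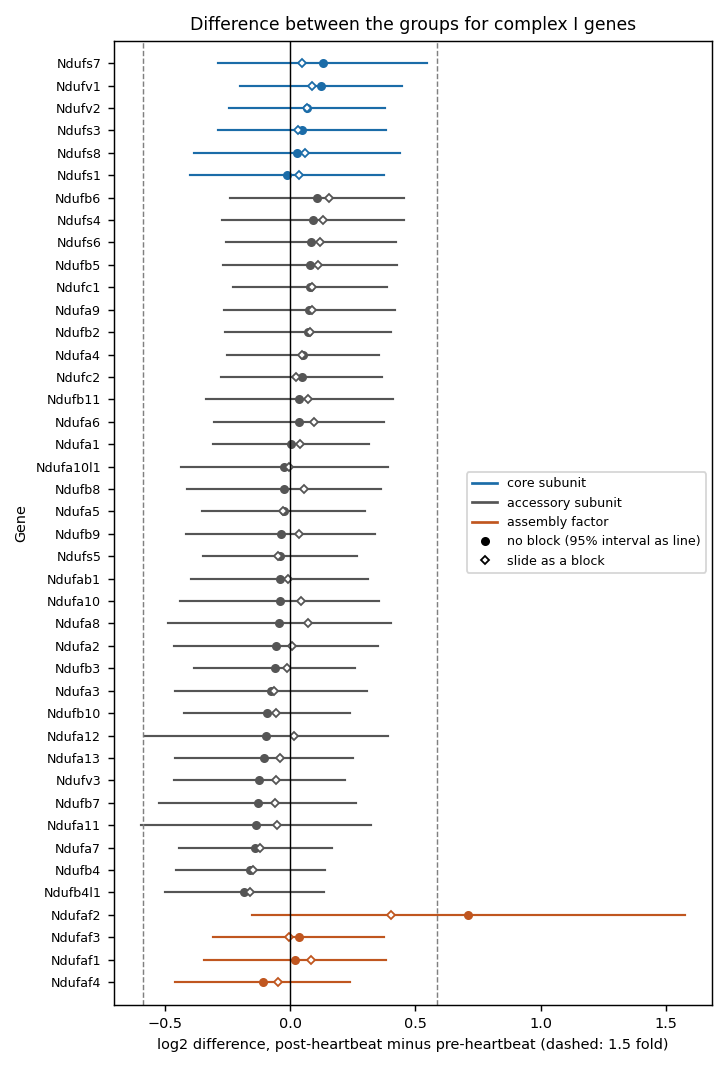
Log2 difference between the groups (horizontal axis, post-heartbeat minus pre-heartbeat) for the complex I genes described here, with the limma 95% confidence interval as a line, n = 3 arrays per group. Filled points are the fit without a block, open points the fit with the slide as a block, and the dashed lines mark 1.5 fold, which the intervals of only Ndufaf2 and Ndufa11 cross.

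**Figure D2:**
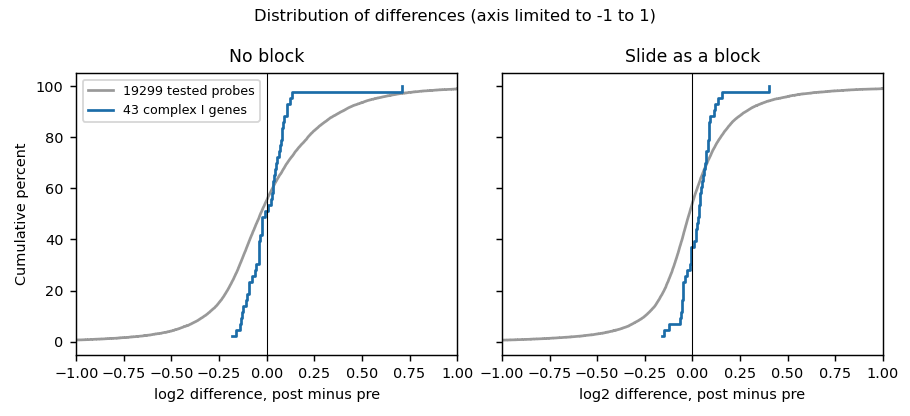
Cumulative percent (vertical axis) of genes or probes with a log2 difference (horizontal axis, post-heartbeat minus pre-heartbeat) up to each value, for the 43 complex I genes and the 19299 tested probes, without a block (left) and with the slide as a block (right). The horizontal axis is limited to -1 to 1. The complex I genes fill a narrower range than all probes, and the far right step is Ndufaf2 at 0.71 without the block and 0.40 with it.

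The signals of the complex I genes varied more between the arrays of the pre-heartbeat group than between the groups. Pre-heartbeat replicate 1 was the lowest of the 6 arrays for 27 of the 43 genes (62.8%, beside 24.5% of all tested probes), and pre-heartbeat replicate 2 was the highest for 26 (60.5%, beside 38.7%). The median deviation of the 43 genes from their own means was -0.13 on pre-heartbeat replicate 1, 0.13 on replicate 2 and 0.012 on replicate 3. That of all tested probes was -0.052, 0.11 and 0.019, so much of the high on replicate 2 was shared with all probes. On post-heartbeat replicates 1 to 3 the median of the 43 genes was 0.014, 0.014 and -0.037. That of all tested probes was 0.0065, -0.029 and -0.012. The lowest and the highest array were thus of the same group, on different slides, and the post-heartbeat arrays lay between them.

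Within slide 1, where 1 pre-heartbeat array stood against 2 post-heartbeat arrays, 35 of the 43 genes were higher in the post-heartbeat group, beside 58.2% of all tested probes. Within slide 2, where 2 pre-heartbeat arrays stood against 1 post-heartbeat array, 8 were higher, beside 41.2% of probes. The 43 genes had a median difference of 0.17 within slide 1 and -0.11 within slide 2, while over all tested probes the medians were 0.050 and -0.054. The direction was therefore opposite on the 2 slides for most genes. It was the same on both for 8 genes (18.6%, beside 49.9% of all tested probes). Of these, Ndufv1, Ndufa1, Ndufb6 and Ndufaf2 were higher within both slides (beside 24.7% of probes), and Ndufa7, Ndufb4, Ndufb4l1 and Ndufaf4 were lower within both (beside 25.2%). With pre-heartbeat replicate 1 left out, 14 of 43 genes were higher and the median was -0.091, beside -0.082 over all tested probes. With pre-heartbeat replicate 2 left out, 32 of 43 were higher and the median was 0.073, where that of all tested probes was close to 0.

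**Figure D3:**
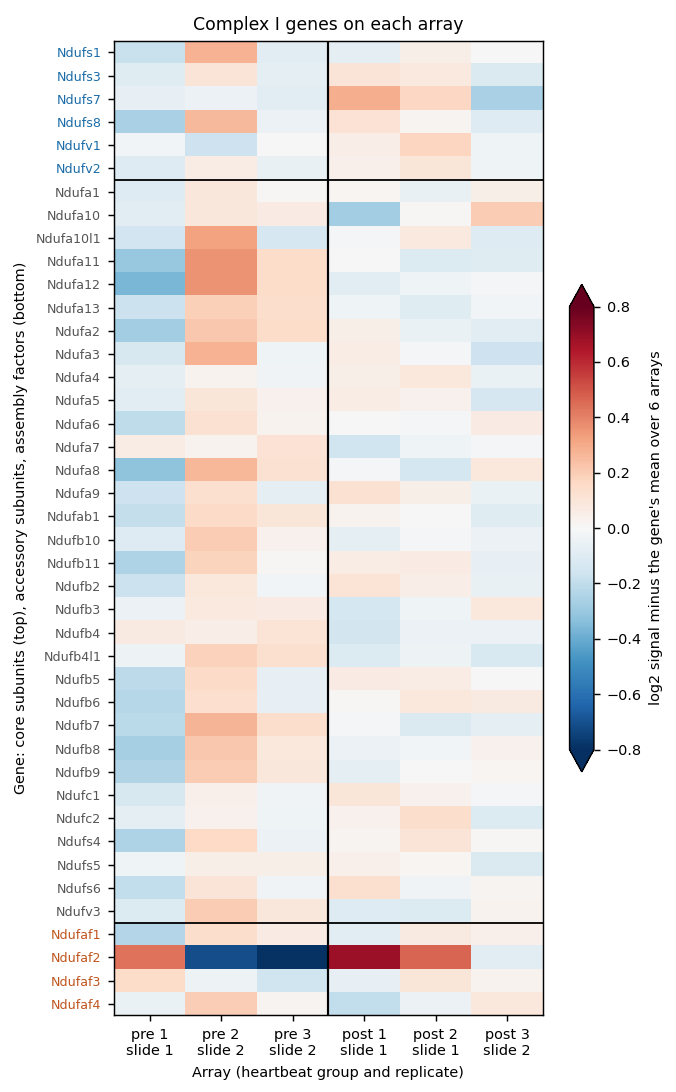
Normalized log2 signal of the complex I genes described here on each array less the gene's mean over the 6 arrays (colour scale, blue below and red above the mean), with arrays in columns by group and slide and genes in rows by role. Pre-heartbeat replicate 1 is below the mean for most subunits and pre-heartbeat replicate 2 above it, and Ndufaf2 departs from the other genes.

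The 7 nuclear core subunits lie in the matrix arm. By value 6 of the 7 were higher in the post-heartbeat group, beside 44.7% of all tested probes (7 of 7 with the slide as a block, beside 45.8%). Their median log2 difference was 0.067 (0.049 with the block), with 0 past the threshold. The slides differed, with 6 of the 7 higher within slide 1 (median 0.17) and 2 within slide 2 (median -0.091). Only Ndufv1 was higher within both slides. Ndufv1, which binds NADH and the flavin cofactor, is probed on chr1:206590020-206590080 (rn4, minus strand). Its normalized signal was 3.32, 3.18 and 3.35 before and 3.40, 3.51 and 3.31 after heartbeat initiation. Post-heartbeat replicate 2 was the highest and pre-heartbeat replicate 2 the lowest, and the groups overlapped. The log2 difference was 0.12 (0.088 with the block, SE 0.14, 95% confidence interval -0.20 to 0.45, limma adjusted p = 0.866, two-sided exact permutation p = 0.3, where 0.1 is the smallest p that 3 arrays per group allow). Ndufv2, its neighbour in the NADH-binding module, had a signal of 2.85, 3.02 and 2.90 before and of 2.997, 3.05 and 2.92 after heartbeat initiation, and the groups overlapped. Its log2 difference was 0.067 (0.068 with the block, SE 0.13, limma adjusted p = 0.893). Ndufs1, the largest iron-sulfur subunit of this module and the target of an antibody used in the study, had a signal of 2.65, 3.104 and 2.74 in the pre-heartbeat group and of 2.76, 2.87 and 2.83 in the post-heartbeat group. The pre-heartbeat arrays held both its lowest and its highest signal, and all post-heartbeat arrays fell between them. Its log2 difference was -0.011 (SE 0.16, interval -0.40 to 0.38, limma adjusted p = 0.988), and its sign turned with the slide as a block (0.037).

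The remaining core subunits form the ubiquinone-reducing module. Ndufs7, which lines the ubiquinone pocket and is probed on chr7:10963975-10964034 (rn4, minus strand), had the largest positive difference among the subunits. Its signal came to 2.19, 2.21 and 2.17 before and 2.55, 2.42 and 1.997 after heartbeat initiation. The pre-heartbeat arrays were close together, and the post-heartbeat arrays lay on both sides of them, with the 2 arrays of slide 1 above and that of slide 2 below. The log2 difference of Ndufs7 was 0.13 (SE 0.18, interval -0.29 to 0.55, limma adjusted p = 0.866) and fell to 0.049 with the slide as a block, and without post-heartbeat replicate 3 it was 0.29. Ndufs3, on which the module begins to assemble, had a signal of 2.30, 2.497 and 2.31 in the pre-heartbeat group and of 2.497, 2.47 and 2.28 in the post-heartbeat group, a log2 difference of 0.048 (0.031 with the block, SE 0.14, limma adjusted p = 0.931). Ndufs8, which carries iron-sulfur clusters next to the pocket, had a signal of 0.82, 1.34 and 1.04 before and of 1.199, 1.10 and 0.98 after, a log2 difference of 0.028 (0.060 with the block, SE 0.17, limma adjusted p = 0.968). Neither gene separated the groups.

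Of the 32 accessory subunits, 12 were higher by value after heartbeat initiation (18 with the slide as a block). The share of all tested probes was 44.7% (45.8% with the block). The accessory subunits had a median log2 difference of -0.038 (0.021 with the block) and a range from -0.18 to 0.11. By family, 4 of 14 Ndufa genes were higher (median -0.042), 4 of 11 Ndufb genes (median -0.037) and 2 of 2 Ndufc genes (median 0.062). With the slide as a block the medians of Ndufa and Ndufb changed sign, with 8 of 14 Ndufa genes higher (median 0.012), 6 of 11 Ndufb genes (median 0.037) and 2 of 2 Ndufc genes (median 0.057). The groups did not overlap for 3 of the 43 genes, all accessory subunits and all lower in the post-heartbeat group, beside 6.14% of all tested probes that were lower without overlap (11.5% in either direction). No complex I gene was higher without overlap, beside 5.38% of probes.

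The largest negative differences were those of Ndufb4 and Ndufb4l1, a subunit of the membrane arm and a near copy of it, and of Ndufa7, a subunit of the matrix arm. Ndufb4, probed on chr11:64859496-64859555 (rn4, plus strand), had a signal of 4.49, 4.48 and 4.53 on the pre-heartbeat arrays and of 4.28, 4.37 and 4.38 on the post-heartbeat arrays. On this probe every post-heartbeat array was below every pre-heartbeat array, and the pre-heartbeat arrays differed little. The log2 difference was -0.16 (SE 0.13, interval -0.46 to 0.14, limma adjusted p = 0.866), with an exact permutation p of 0.1, and -0.15 with the slide as a block. A dimmer Ndufb4 probe had a signal of 3.03, 3.65 and 3.48 before and of 3.12, 3.18 and 3.19 after heartbeat initiation. On that probe the groups overlapped, and the log2 difference was -0.23 (-0.13 with the block, SE 0.19). It was 0.11 within slide 1 and -0.38 within slide 2. Ndufb4l1, probed on chr14:7547999-7548058 (rn4, plus strand), had a signal of 2.83, 3.05 and 2.999 before and of 2.76, 2.83 and 2.75 after heartbeat initiation. The groups touched without overlapping, since the lowest pre-heartbeat and the highest post-heartbeat array had almost the same signal. Its log2 difference was -0.18 (-0.16 with the block, SE 0.13, interval -0.50 to 0.13, limma adjusted p = 0.866). The array names both genes, and because they are near copies their signals may share transcripts and are not counted as independent. Ndufa7, probed on chr7:16334128-16334187 (rn4, plus strand), had a signal of -2.05, -2.08 and -1.99 in the pre-heartbeat group and of -2.27, -2.14 and -2.12 in the post-heartbeat group. Its groups did not overlap, and its log2 difference was -0.14 (-0.12 with the block, SE 0.13, interval -0.44 to 0.17, limma adjusted p = 0.866). All 3 genes were lower under each of 18 ways of processing or sets of arrays, with log2 differences from -0.25 to -0.093. None passed the threshold, and the smallest adjusted p was 0.400. The 3 genes were named for the largest falls, and their groups did not overlap. Their sign could therefore not turn when an array was left out, and the shared sign is not separate support.

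Ndufb8 is a membrane-arm subunit that is lost when the complex does not assemble, which makes it a usual antibody target. Its signal was 5.42, 5.90 and 5.77 before and 5.64, 5.67 and 5.72 after heartbeat initiation. The post-heartbeat arrays again lay inside the range of the pre-heartbeat arrays, and the log2 difference was -0.024 (SE 0.16, interval -0.41 to 0.36, limma adjusted p = 0.970), or 0.056 with the slide as a block. Ndufa4, first described as a complex I subunit and later assigned to cytochrome c oxidase, had a signal of 4.48, 4.58 and 4.52 in the pre-heartbeat group and of 4.60, 4.64 and 4.50 in the post-heartbeat group. Its groups overlapped, with a log2 difference of 0.053 (0.046 with the block, SE 0.13, interval -0.25 to 0.36, limma adjusted p = 0.913). Among the other accessory subunits, the largest positive difference was that of Ndufb6 at 0.11 (0.16 with the block) and the largest negative that of Ndufa11 at -0.14 (-0.050 with the block). Ndufs4, a subunit needed to hold the NADH-binding module in place, had a log2 difference of 0.090 (0.13 with the block, SE 0.15), and Ndufab1, the mitochondrial acyl carrier protein, one of -0.042 (-0.0073 with the block, SE 0.15). A much dimmer Ndufab1 probe had a log2 difference of -0.44 (-0.29 with the block, SE 0.21, limma adjusted p = 0.813), with overlapping groups.

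The 4 assembly factors had a median log2 difference of 0.028 (0.040 with the slide as a block). By value 3 of 4 were higher, beside 44.7% of all tested probes (2 of 4 with the block, beside 45.8%). Ndufaf2, a chaperone related to the subunit Ndufa12, had the largest difference of the 43 genes. Its probe is shown because the largest difference rests on it, and 32 of its 60 bases are placed by the array annotation on chr2:39269415-39269446 (rn4, minus strand).
Ndufaf2 probe: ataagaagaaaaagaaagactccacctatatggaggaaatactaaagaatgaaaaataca

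The normalized signal of Ndufaf2 was -4.60, -5.74 and -5.82 before and -4.35, -4.57 and -5.12 after heartbeat initiation. Pre-heartbeat replicate 1 lay among the post-heartbeat arrays, so the groups overlapped (two-sided exact permutation p = 0.2). The slide 1 arrays were higher than the slide 2 arrays, and within each slide the post-heartbeat arrays were higher, by 0.14 on slide 1 and 0.66 on slide 2. The log2 difference was 0.71 (SE 0.37, interval -0.15 to 1.57, limma adjusted p = 0.850), or 1.64 times the pre-heartbeat signal. With the slide as a block it was 0.40 (SE 0.16, interval 0.024 to 0.78), with an unadjusted limma p of 0.0396 and an adjusted p of 0.463. With normexp background correction, which raises the dimmest signals, the difference was 0.20, and over all ways of processing it ranged from 0.20 to 1.10 with adjusted p from 0.248 to 1. The other three factors differed little. Ndufaf1, which acts on the membrane arm, had a signal of -2.80, -2.43 and -2.503 before and of -2.65, -2.495 and -2.52 after heartbeat initiation, a log2 difference of 0.021 (0.084 with the block, SE 0.15). Ndufaf3 and Ndufaf4, which bind each other and help to build the ubiquinone module, had log2 differences of 0.034 (-0.0050 with the block, SE 0.14) and -0.11 (-0.048 with the block, SE 0.15). Their signals were 1.01, 0.82 and 0.71 before and 0.80, 0.96 and 0.89 after for Ndufaf3, and 0.97, 1.21 and 1.04 before and 0.82, 0.97 and 1.10 after for Ndufaf4, and the groups overlapped for all 3 factors.

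A list of 10 assembly factors with other names had 8 genes on the array, all tested. Of these, 3 were higher by value (4 with the block), the median log2 difference was -0.034 (-0.011), and 0 passed the threshold without or with the slide as a block. The range, from -0.15 for Dmac1 to 0.12 for Tmem70 (-0.15 and 0.19 with the block), was like that of the subunits.

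The membrane arm also needs core subunits encoded in the mitochondrial genome, and 6 of these 7 genes were found through the array descriptions (mt-Nd1, mt-Nd2, mt-Nd4, mt-Nd4l, mt-Nd5 and mt-Nd6). All 6 were lower by value after heartbeat initiation, where 44.7% of all tested probes were higher (45.8% with the slide as a block). Their log2 differences ran from -0.44 for mt-Nd4l to -0.17 for mt-Nd1, with a median of -0.34 (-0.19 with the block). Of the 6, 0 passed the threshold, and the limma adjusted p of each was 0.866. The mean signal of the 6 genes was 4.60, 5.43 and 4.96 before and 4.46, 4.73 and 4.85 after heartbeat initiation. Pre-heartbeat replicate 2 was the highest array, as for the nuclear subunits, and the groups overlapped because pre-heartbeat replicate 1 lay among the post-heartbeat arrays. Most of these genes are cut from a common precursor transcript, so they are not independent. The largest single difference, that of mt-Nd4l, was -0.44 (-0.27 with the block, SE 0.26), with signals of 3.95, 4.93 and 4.47 before and 3.81, 4.05 and 4.18 after heartbeat initiation.

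**Figure D4:**
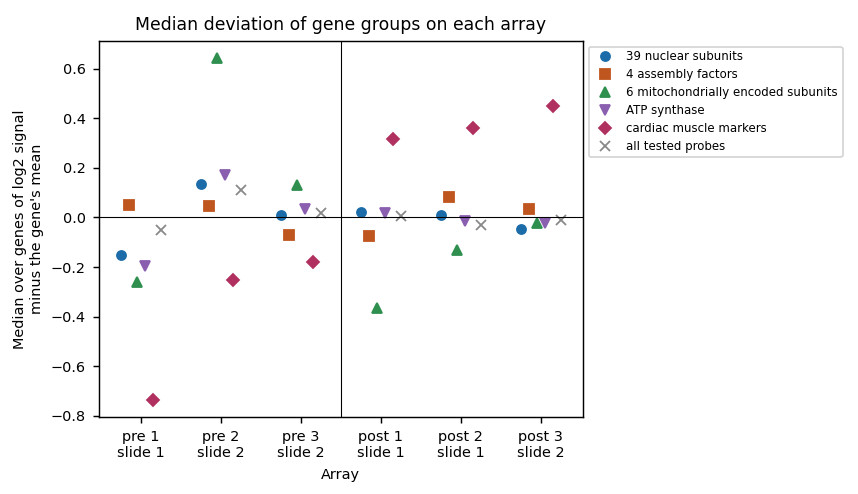
Median over the genes of a group of the log2 signal less the gene's mean over the 6 arrays (vertical axis), for each array by group and slide (horizontal axis). The nuclear subunits run from a low in pre-heartbeat replicate 1 to a high in replicate 2, close to the ATP synthase genes. All tested probes do so over a narrower range, from -0.052 to 0.11. The cardiac muscle markers are below 0 on all pre-heartbeat arrays and above 0 on all post-heartbeat arrays.

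The nuclear genes of the other respiratory complexes also had medians near 0. Without the slide as a block, the log2 differences of single complex IV genes ranged from -0.13 to 1.54. The counts that follow stand beside 44.7% of all tested probes higher by value, or 45.8% with the block. Complex II (succinate dehydrogenase) had 4 of 4 genes higher by value, with a median log2 difference of 0.076, complex III 7 of 9 with 0.082, complex IV 5 of 11 with -0.0060, and ATP synthase 8 of 15 with 0.013. With the slide as a block these were 4 of 4 with 0.096, 8 of 9 with 0.11, 8 of 11 with 0.037 and 11 of 15 with 0.032, so the sign of the complex IV median turned. Of these 39 genes, 0 passed the limma threshold, beside 0.14% of all tested probes. With the slide as a block 1 passed, beside 1.62%. It was Cox6a2, the striated muscle form of a cytochrome c oxidase subunit. Among 13 regulators of mitochondrial gene expression, 6 were higher by value in either fit, with a median of -0.0083 (-0.065 with the block) and 0 past the threshold. Without the block their log2 differences ranged from -0.31 to 1.14, wider than those of the complex I genes. The difference between complex I and the other complexes was not tested.

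The cardiac muscle markers are given beside these results. All 10 tested markers were higher by value after heartbeat initiation, beside 44.7% of all tested probes, at a median log2 difference of 0.70 (0.82 with the block). Of the 10, 1, the ventricular myosin light chain Myl2, passed the limma threshold, beside 0.119% of all tested probes called higher. With the slide as a block 4 passed, beside 1.16%. Their summed signal, in log2, ranged from 8.53 to 9.29 on the pre-heartbeat arrays and from 9.42 to 9.69 on the post-heartbeat arrays. All 10 were well above background on all 6 arrays. Markers of neighbouring tissues were also detected, and the summed log2 signals of 5 other lists did not overlap between the groups. Each sum covers all found markers, tested or not, and follows the brightest of them. By the mean level of the markers, the groups overlapped for yolk sac endoderm, at 2.18, 1.39 and 1.84 before and 1.75, 1.74 and 1.14 after. The mean levels also overlapped for endothelial markers, of which 1 of 6 was higher by value (3 with the block), and for paraxial mesoderm markers. The sums of yolk sac endoderm (6 markers tested) ranged from 5.74 to 5.80 before and from 5.08 to 5.47 after. Those of definitive endoderm (5 of 6 tested, Sox17 not) ranged from 2.504 to 2.58 and from 2.07 to 2.23. Neural ectoderm markers (2 of 6 tested) ranged from 2.66 to 2.86 before and from 1.28 to 1.56 after. Otx2 passed the threshold as lower, beside 0.0207% of all tested probes. Endothelial markers (6 tested) ranged from 3.96 to 4.05 and from 3.42 to 3.64, and paraxial mesoderm markers (4 of 6 tested) from 4.44 to 4.59 and from 4.65 to 4.74. Erythroid markers (4 of 7 tested) overlapped, at 0.72 to 1.61 and 0.85 to 2.02. Gata1, Hbe1, Hes5 and Msgn1 were not well above background on any array. In these bulk samples fewer cells of a type and less RNA per cell cannot be told apart, and the part of the tissue makeup in the complex I values was not tested.

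Promoters of the complex I genes were compared for motifs of factors known to act on respiratory chain genes. RefSeq promoters (GRCr8, 250 bases before to 50 after the start) were matched for 39 of the 43 genes and searched on both strands. The NRF1 motif, spelled as GCGCA, any base and GCGC, was found in 8 of 39 promoters (20.5%), beside 4.71% of 27457 promoters of all genes. The GABP motif CCGGAAGT was found in 3 (7.69%, beside 4.01%), the ERR motif TCAAGGTCA in 0 (beside 0.412%), and the hypoxia response element as TACGTG in 1 (2.56%, beside 3.49%) and as GACGTG in 5 (12.8%, beside 6.54%). Matches of different motifs did not overlap. NRF1 matches, to the motif or its reverse complement, are shown in capitals with their surroundings, on the strand of the gene, for subunits of both arms and for an assembly factor, followed by the GABP match of Ndufs1 as a core subunit.
Ndufa5, chr4:53971249-53971276, minus strand: gtatgagctGCGCAGGCGCaaatctctc
Ndufs6, chr1:31797365-31797392, plus strand: gaatgctgtGCGCCTGCGCcggcgctct
Ndufb4, chr11:76569171-76569198, plus strand: tctgtgcgcGCGCAGGCGCacttcctga
Ndufaf4, chr5:43401628-43401655, plus strand: cagtagtccGCGCATGCGCccctgtgga
Ndufs1, chr9:72073788-72073815, minus strand: ggcctcggctACTTCCGGcggaactgca

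The 8 genes with an NRF1 match were Ndufa5, Ndufa11, Ndufa12, Ndufb4, Ndufs5, Ndufs6, Ndufv3 and Ndufaf4. Their log2 differences ranged from -0.16 for Ndufb4 to 0.084 for Ndufs6 (-0.15 and 0.12 with the block), within the range of the other complex I genes, and 0 passed the threshold. Of the 8, only Ndufs6 was higher by value, beside 21 of 43 complex I genes. With the block Ndufs6 and Ndufa12 were higher, beside 27 of 43. The array annotation places the Ndufs6 probe on chr2:26295954-26296013 (rn4), whereas the Ndufs6 promoter is on chr1 (GRCr8). Whether the probe and the promoter belong to the same locus was not tested. Whether direction goes with the motif was not tested. The gene for the factor, Nrf1, had a log2 difference of -0.25 (-0.19 with the block, SE 0.15, limma adjusted p = 0.866). A match is a description of the sequence and was not tested for binding.

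**Figure D5:**
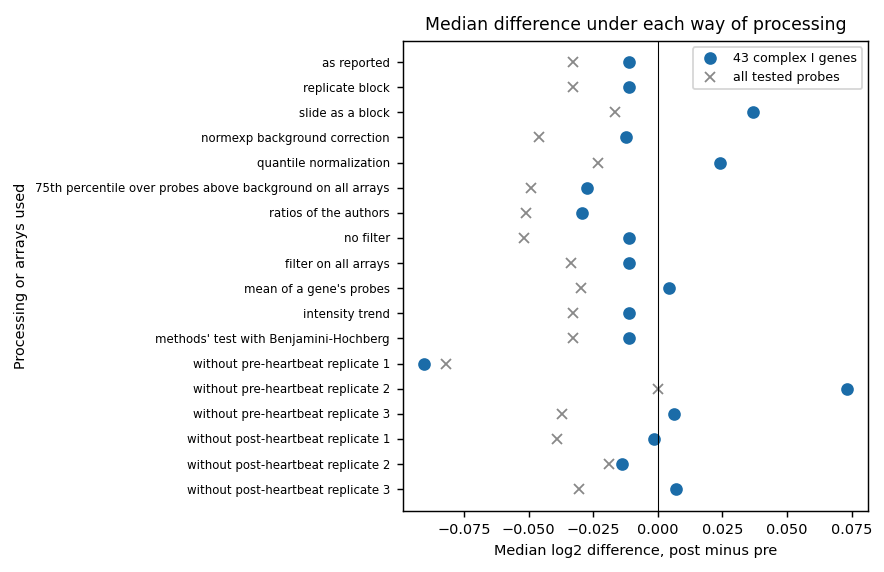
Median log2 difference (horizontal axis, post-heartbeat minus pre-heartbeat) of the 43 complex I genes and of all tested probes under each way of processing or set of arrays (vertical axis). The median of the complex I genes runs from -0.091 without pre-heartbeat replicate 1 to 0.073 without pre-heartbeat replicate 2.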

How the data were processed

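Total RNA of 6 heart primordium samples was labeled with Cy3 and hybridized by the authors to 1-color rat arrays, which were quantified with Agilent Feature Extraction 10.7.3.1 (per the labels). The deposited values used were the processed signal of each spot, an intensity after background subtraction and before normalization between arrays, and the mean signal and background intensity for normexp. Spot flags were other deposited columns. The authors' deposited ratios, shifted to the 75th percentile, served as an alternative. With the median shift between any 2 arrays taken out, they gave array differences within 0.01 log2 of those computed here for 100% of 30367 probes. That shift was left in for the comparison of the groups, where the median difference of the complex I genes was -0.029 with the ratios and -0.011 here. Deposited columns of other samples numbered 0.

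Control and outlier spots were left out, signals were set relative to the array's 75th percentile on the log2 scale, and spots of a probe were averaged. Probes were tested if well above background on all 3 arrays of a group. Groups were compared with limma 3.58.1 (R 4.3.3; the package data.table, version 1.17.8, read the files), with Benjamini-Hochberg adjustment over 19299 probes (threshold 0.05), and single genes by an exact permutation test. With 2 groups the Tukey HSD test equals the pooled comparison. The procedure was tested on simulated data.

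Of the 43 genes, 10 had several probes, and 1, Ndufa10l1, had probes of opposite sign. Its brighter probe is annotated with transcripts of both Ndufa10l1 and Ndufa10, so it is uncertain. In RefSeq, 19 of the genes have annotated pseudogenes, which the probes may also detect. Positions are those of the array annotation (rn4). Values are given in full for core subunits, assembly factors, antibody targets, Ndufa4, the 3 largest rises and falls, and genes with an unadjusted p under 0.05. Ndufa4l2 was not analysed here. The values of 1 gene are counted in the summaries and not reported here. The genes, lists and alternatives were chosen with earlier results of these data known. The number of arrays limits the precision.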

Additional observations from a re-analysis of the deposited data

How the results depend on the processing

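The count of complex I genes past the limma threshold was 0 in both directions under all 18 ways of processing or sets of arrays, while over all probes it was 27 as reported, 312 with the slide as a block, 144 with the replicate block, 0 in the methods' test after adjustment, 49 with normexp correction and 0 to 2 with an array left out. The median of the subunits moved by less than 1 SD between arrays (0.105), as did that of the assembly factors (0.075), in every alternative. This SD was taken within the groups from the medians of the same arrays. Leaving out 1 array could therefore hardly move a median past it, and those alternatives do not test stability. The replicate block left the differences as they were, with 1 gene, Ndufaf2, at an unadjusted p under 0.05 (beside 9.63% of all tested probes) and a smallest adjusted p of 0.278. Same-numbered samples had correlations of 0.65, -0.28 and 0.49. The samples numbered 1 shared a slide, as did those numbered 3, and those numbered 2 were on different slides. Pairing and slide cannot be told apart in these correlations, and the numbers were not taken as pairs. Signs turned for 5 of the genes given in full, all with differences near 0. With the slide as a block the log2 difference was 0.037 for Ndufs1, 0.056 for Ndufb8 and -0.0050 for Ndufaf3, and with quantile normalization it was 0.022 for Ndufs1, 0.060 for Ndufb8 and -0.021 for Ndufaf1. Leaving out 1 array at a time gave log2 differences from -0.091 to 0.095 for Ndufaf1, from -0.036 to 0.12 for Ndufaf3, from -0.16 to 0.078 for Ndufb8, from -0.10 to 0.13 for Ndufs1 and from -0.094 to 0.16 for Ndufs8. The cause was not tested.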

Other observations

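Array rows that do not carry an Nduf name now belong to 3 further assembly factors, by the current name of their RefSeq transcript. Ndufaf5 had a log2 difference of -0.0026 (0.039 with the slide as a block, SE 0.13) and Ndufaf8 one of -0.11 (-0.087 with the block, SE 0.13), with overlapping groups. Ndufaf7, an arginine methyltransferase of the mitochondrial matrix, had 2 probes. The normalized signal of the brighter was -1.56, -1.51 and -1.72 before and -1.31, -1.32 and -1.43 after heartbeat initiation, so the groups did not overlap. Its log2 difference was 0.24 (0.22 with the block, SE 0.13, limma adjusted p = 0.866), and that of the dimmer probe was 0.21 (0.21 with the block, SE 0.19), with overlapping groups.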
